A study of Mus musculus with 29 samples.

Results

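Prefrontal libraries of mice labelled Sus-T were compared with those of mice labelled Res-T, all with trauma. The comparison used the 4 Sus-T and the 3 Res-T libraries of that condition, 7 of the 29 samples of the series, and all 6080 genes of their table. It was read throughout as Sus-T minus Res-T. The mice were of the B6.Cg-Tg(Thy1-YFP)HJrs/J line, in which a neuronal Thy1 promoter drives a yellow fluorescent protein in a subset of projection neurons. The neurons labelled pyramidal were sorted by flow cytometry from enzymatically dissociated punches of medial prefrontal cortex, and total RNA was sequenced after removal of ribosomal RNA with a kit for very small inputs. The other groups of the cortex were 4 Res-T and 2 Sus-T libraries without trauma, and both labels were also sampled in the amygdala. The third Res-T library with trauma is replicate 4, because replicate 2 was removed by the submitters and was not analysed here. The labels give no sex or age and do not say which libraries came from separate animals. The design text names 9 mice and speaks of the amygdala alone. The p-values therefore measure the spread between libraries, which may be in part technical.

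The medial prefrontal cortex exerts top-down control over the amygdala, and its pyramidal neurons carry signals needed to extinguish learned fear. These are glutamatergic projection cells whose dendritic spines hold scaffolds, receptors and calcium-dependent kinases that change with use. Their axons are wrapped by oligodendrocytes, which make myelin from a small set of very abundant transcripts.

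The sorted libraries were first set against their cell-type label. Of 17 general markers of pyramidal neurons, 1 had a row in the table used here, the transcription factor Mef2c, so the label could not be checked on Slc17a7, Camk2a, Neurod6 or the reporter's own promoter gene Thy1. Of 33 oligodendrocyte markers 21 had a row, of 30 astrocyte markers 12, of 14 precursor markers 4, of 23 interneuron markers 5 and of 27 vascular markers 1. None of 25 microglial markers and none of 15 markers of blood, ependyma and choroid plexus had one. Oligodendrocyte transcripts made up 6.37 to 8.79% of the library total in Res-T (7.69% ± 1.23, SD, n = 3) and 3.199 to 5.27% in Sus-T (3.79% ± 0.991, n = 4). These ranges did not overlap. In a bulk sample, fewer cells of a type and less of its RNA per cell cannot be told apart.

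Expression differed widely between the labels. Of 6080 genes 1397 (23%) passed an adjusted p of 0.05 in limma, with Benjamini-Hochberg adjustment over all genes. They comprised 854 genes higher in Sus-T (14% of all genes) and 543 lower (8.93%). The count was 624 without Res-T replicate 1, 669 without Res-T replicate 4, 886 without Sus-T replicate 3 and 924 without Res-T replicate 3. It was 0 in a fit with the oligodendrocyte marker level as a covariate, a level that itself did not overlap between the labels. At least a 2-fold difference was found for 641 of the higher and 310 of the lower genes. The median log2 difference over all genes was 0.15, and under quantile normalization it was -0.01. That normalization moved the split of higher and lower calls from 854 and 543 to 653 and 599. Without any threshold, the lowest of the 4 Sus-T values exceeded the highest of the 3 Res-T values for 1483 genes (24.4%), and the reverse held for 993 (16.3%). The deposited values had lost 2 dimensions between libraries before deposit, so the spread and the p-values may be too small.

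Deposited values summed to between 2095138 and 2444486 per library, in arbitrary units, and read depth is unknown. On the first principal component of all 13 cortical libraries, which held a share of 0.346 of the variance, the 3 Res-T libraries with trauma stood at -47.6, -40.1 and -44.1 and the 4 Sus-T libraries between 14.5 and 26.9. Res-T without trauma replicate 4 stood at -42.4, beside the Res-T libraries with trauma and away from its own group, whose other members ran from -6.81 to 31.0. Its oligodendrocyte share was 10.25%, against 3.92 to 4.67% in the other 3. The variance estimate pooled all 4 groups, and without this library 1608 genes were called in place of 1397, with 1395 of the 1397 among them.

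The genes with the smallest p-values among those higher in Sus-T included Snhg11, a host transcript of small nucleolar RNAs that is enriched in neurons and lies on chromosome 2 (158375638 to 158386145, plus strand, GENCODE M21 on GRCm38.p6). The values of Snhg11 were 82.6, 62.1 and 63.3 in Res-T and 615, 574, 346 and 335 in Sus-T. The lowest Sus-T library was several times above the highest Res-T library, and the fold was 6.46 (log2 2.69 ± 0.33, adjusted p = 0.000874). Here and in what follows a fold is the antilog of the fitted difference on the log2(value + 1) scale, which understates changes of low values, the error of a log2 difference is its SE, and adjusted p-values are those of limma. Mef2c stood at 118, 152 and 88.8 in the Res-T and at 1030.0, 1218, 1135 and 1608 in the Sus-T libraries. Mef2c, an activity-regulated transcription factor that limits excitatory synapse number, was 10.4-fold higher (log2 3.38 ± 0.47, adjusted p = 0.00108), and the groups were far apart. For Hspe1 the libraries gave 25.5, 10.6 and 27.4 in Res-T and 129.7, 216, 171 and 201 in Sus-T. Hspe1, the small co-chaperonin of mitochondrial HSP60, was 8.61-fold higher (log2 3.11 ± 0.40, adjusted p = 0.000874).

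The HSP60 gene itself, Hspd1, is the head-to-head neighbour of Hspe1 on chromosome 1, and the spans of both genes share 112 bases on opposite strands. Hspd1 read 351, 471 and 229 across Res-T and 165, 424, 341 and 455 across Sus-T. The groups overlapped, and its log2 difference was -0.06 ± 0.32 (SE; limma adjusted p = 0.913). Both proteins work in 1 chaperonin complex and are usually transcribed from a shared promoter region, yet in these values only Hspe1 passed the test; the difference between the 2 genes was not tested. The division of reads between Hspe1 and its processed pseudogenes is not given in the sources used here.

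The 250 bases before the RefSeq start site of 3 leading genes higher in Sus-T and of the leading lower gene Mast4 are printed to show the sequences from which these transcripts start, 5′ to 3′ on the gene's strand, from RefSeq on GRCm38.p6. Capitals mark matches, on either strand, to the GC box GGGCGG, the CCAAT box, the TATA box TATAAA, the heat shock element core GAANNTTC or the cAMP response element TGACGTCA. For Mef2c the start site nearest to its GENCODE 5′ end was taken from 3. The windows are chr2:158375463-158375712 (plus) for Snhg11, chr1:55087898-55088147 (plus) for Hspe1, chr13:83503784-83504033 (plus) for Mef2c and chr13:103334493-103334742 (minus) for Mast4.
Snhg11: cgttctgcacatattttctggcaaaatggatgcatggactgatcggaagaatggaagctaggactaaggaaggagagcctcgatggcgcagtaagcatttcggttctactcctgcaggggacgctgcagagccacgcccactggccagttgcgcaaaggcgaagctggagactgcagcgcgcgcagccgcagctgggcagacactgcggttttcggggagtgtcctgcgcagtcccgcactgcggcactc
Hspe1: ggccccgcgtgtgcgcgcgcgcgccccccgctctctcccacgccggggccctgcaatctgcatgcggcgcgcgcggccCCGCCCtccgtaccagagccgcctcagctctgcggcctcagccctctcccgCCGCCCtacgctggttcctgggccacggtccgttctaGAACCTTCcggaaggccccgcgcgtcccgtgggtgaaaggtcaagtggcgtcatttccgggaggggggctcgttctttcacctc
Mef2c: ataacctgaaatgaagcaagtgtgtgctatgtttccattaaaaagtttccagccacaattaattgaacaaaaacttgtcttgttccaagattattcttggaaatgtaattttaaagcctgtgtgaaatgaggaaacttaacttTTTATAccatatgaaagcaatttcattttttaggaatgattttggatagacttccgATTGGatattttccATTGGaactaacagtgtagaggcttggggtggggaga
Mast4: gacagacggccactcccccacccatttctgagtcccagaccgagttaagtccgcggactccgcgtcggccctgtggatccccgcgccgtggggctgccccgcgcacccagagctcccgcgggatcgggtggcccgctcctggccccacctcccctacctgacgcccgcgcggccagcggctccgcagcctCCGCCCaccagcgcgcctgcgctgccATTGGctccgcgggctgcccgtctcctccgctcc
The Hspe1 window held 2 GC boxes and 1 heat shock element core. The Mef2c window, with 33.6% GC, held 2 CCAAT matches and 1 TATA match, all on the strand opposite to the gene. The Mast4 window, with 75.2% GC, held 1 GC box match and 1 CCAAT match, also on the opposite strand. None of these letters occurred in the Snhg11 window.

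Motif shares were counted over the called genes in each direction. A GC box stood in 62.6% of the 689 matched windows of genes higher in Sus-T, in 60.5% of the 413 of lower genes, in 62.5% of the 4811 matched genes and in 32.7% of all 32851 windows in the table. For the CCAAT box the same shares were 32.5, 34.9, 36.4 and 33.9%, and for the TATA box 4.79, 6.30, 5.76 and 12.4%. The heat shock core was found in 4.50, 3.15, 4.76 and 6.69%, and the cAMP response element in 2.61, 3.15, 2.79 and 1.55%. The MEF2 site was found in 1.02, 2.42, 0.998 and 1.69%, and in none of the printed windows.

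**Figure D1:**
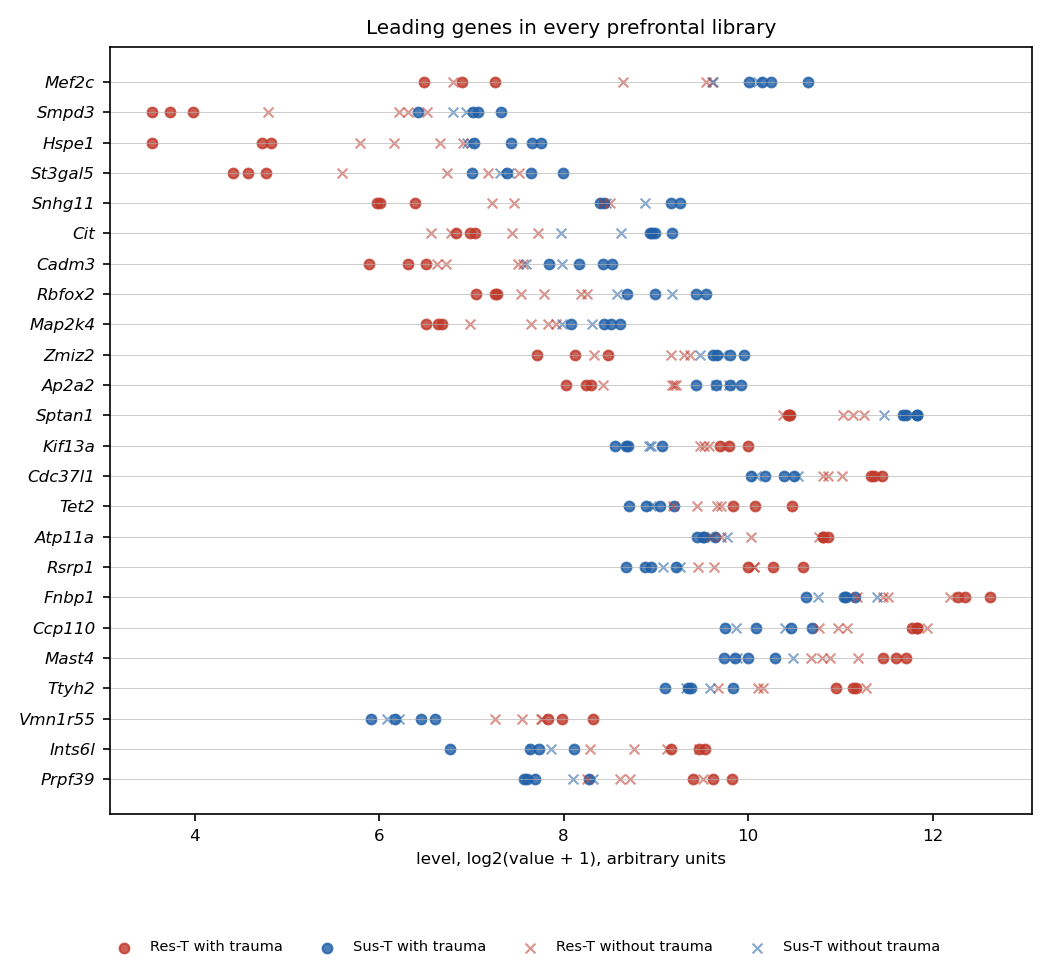
Levels of the 12 leading higher and 12 leading lower genes, as log2(value + 1) on the x axis, with 1 symbol per prefrontal library (filled, with trauma; crosses, without trauma; red, Res-T; blue, Sus-T). Among the filled symbols no gene shows an overlap of the labels, and for many genes 1 red cross, Res-T without trauma replicate 4, sits beside the filled red symbols.

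Among the other leading higher genes were enzymes of membrane lipids and regulators of the cytoskeleton. Res-T libraries held Smpd3 at 14.8, 10.6 and 12.3, against 133, 84.9, 128 and 159 in Sus-T. Smpd3, a neutral sphingomyelinase that releases ceramide, was 9.24-fold higher (log2 3.21 ± 0.44, adjusted p = 0.00108), and St3gal5, which makes the ganglioside GM3, was 7.55-fold higher (log2 2.92 ± 0.41, adjusted p = 0.00108). Cit measured 130.1, 126 and 113 in the 3 Res-T and 495, 489.7, 575 and 508 in the 4 Sus-T libraries. Cit, the citron kinase, was 4.18-fold higher, and its Sus-T libraries were nearly level. The values of Sptan1 were 1402, 1391 and 1379 in Res-T and 3626, 3342, 3641 and 3275 in Sus-T. Sptan1, the alpha-II spectrin of the membrane skeleton, rose 2.49-fold with hardly any spread within either label (log2 1.32 ± 0.20, adjusted p = 0.00165). Further leading genes were the splicing regulator Rbfox2 (3.91-fold), the stress kinase Map2k4 (3.49-fold), the transcriptional co-regulator Zmiz2 (3.15-fold), the clathrin adaptor subunit Ap2a2 (2.86-fold) and the adhesion protein Cadm3 (3.99-fold).

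Among the lower genes, Mast4, a microtubule-associated serine/threonine kinase, led. Mast4 stood at 2812, 3346 and 3098 in the Res-T and at 856, 1249, 924 and 1024 in the Sus-T libraries. The Res-T libraries were 3.07-fold higher than the Sus-T libraries (log2 -1.62 ± 0.20, adjusted p = 0.000874), with no overlap. For Prpf39 the libraries gave 784, 677 and 909 in Res-T and 193, 309, 205 and 189 in Sus-T. Prpf39, a factor of the U1 small nuclear ribonucleoprotein, was 3.56-fold lower in Sus-T (log2 -1.83 ± 0.27, adjusted p = 0.00165), and Sus-T replicate 2 stood above its 3 group members. Fnbp1 read 5208, 4949.9 and 6298 across Res-T and 2102, 2139, 1580.4 and 2288 across Sus-T. Fnbp1, a membrane-bending protein of endocytosis, was 2.72-fold lower (log2 -1.44 ± 0.24, adjusted p = 0.00165).

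The other leading lower genes were Rsrp1, an arginine- and serine-rich protein of splicing (2.56-fold), the Integrator relative Ints6l (3.54-fold), the centriolar protein Ccp110 (2.96-fold), the chloride channel Ttyh2 (3.18-fold), the motor Kif13a (2.11-fold), the lipid flippase Atp11a (2.47-fold), the HSP90 co-chaperone relative Cdc37l1 (2.16-fold) and Tet2, which oxidizes methylcytosine (2.25-fold). Vmn1r55, annotated as a vomeronasal receptor, was 3.38-fold lower and overlaps an exon of the predicted gene Gm47692 on the same strand. Reads from the shared part cannot be told apart, and how they were divided is not given in the sources used here.

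Genes of the synapse were mostly higher or did not pass the test. Of 17 postsynaptic density genes 7 (41.2%) were higher and 0 lower, against 14% and 8.93% of all genes. Their median log2 difference was 0.63, against 0.15 over all genes. Res-T libraries held Dlg3 at 18.3, 9.97 and 36.1, against 207, 121, 198 and 117 in Sus-T. Dlg3, the scaffold SAP102 that anchors NMDA receptors, was 7.86-fold higher (log2 2.97 ± 0.58, adjusted p = 0.00358), with every Sus-T library above every Res-T library. Psd3 measured 1243, 1731 and 1349 in the 3 Res-T and 3846, 3501, 5477 and 5784 in the 4 Sus-T libraries. Psd3 was 3.18-fold and Iqsec2, an exchange factor bound to NMDA receptor scaffolds, 4.74-fold higher, and Nlgn2, the adhesion protein of inhibitory synapses, 2.13-fold. Without Res-T replicate 4 the postsynaptic density genes called were 4 of 17.

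Of 8 ionotropic glutamate receptor genes 2 (25%) were higher and 0 lower, against 14% and 8.93% of all genes. For 6 there was no overlap, with Sus-T above, against 24.4% of all genes. The values of Grin3a were 20.9, 28.8 and 20.3 in Res-T and 232, 104, 93.8 and 104 in Sus-T. Grin3a, an NMDA receptor subunit that lowers calcium entry, was 5.21-fold higher (log2 2.38 ± 0.49, adjusted p = 0.00427), with Sus-T replicate 1 far above the others. Neto2, an auxiliary subunit of kainate receptors, was 4.34-fold higher (log2 2.12 ± 0.59, adjusted p = 0.0167), from 20.8, 19.7 and 15.03 in Res-T to 26.04, 125, 77.8 and 184 in Sus-T, its lowest Sus-T library close to the Res-T libraries. The receptor count was 1 without Sus-T replicate 4 or Res-T replicate 4 and under quantile normalization, and 5 in a fit of the 7 libraries alone or with library weights.

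Channel genes contributed the highest single log2 difference of the table. Kcnb2 stood at 4.499, 5.38 and 1.61 in the Res-T and at 35.7, 77.3, 55.8 and 139 in the Sus-T libraries. Kcnb2, a delayed-rectifier potassium channel subunit, had a log2 difference of 3.94 ± 0.63 (SE; limma adjusted p = 0.00165), at low values in Res-T, and with a pseudocount of 10 in place of 1 the log2 difference of Kcnb2 was 2.53. For Cacna1c the libraries gave 31.4, 35.7 and 17.99 in Res-T and 297, 241, 169.7 and 172 in Sus-T. Cacna1c, the pore of the L-type calcium channel Cav1.2, was 7.599-fold higher (log2 2.93 ± 0.49, adjusted p = 0.00191), and its auxiliary subunit Cacna2d1 1.97-fold. Among all genes 14% were higher and 8.93% lower. Of 7 sodium, calcium and HCN channel genes 2 (28.6%) were higher and 0 lower. Of 9 potassium channel genes 2 (22.2%) were higher and 1 (11.1%), Kcna6, lower (1.77-fold). The first of these lists had 5 higher genes without Sus-T replicate 1 and 1 without Sus-T replicate 2, 3 or 4 or Res-T replicate 1 or 4. It had 4 in a fit of the 7 libraries alone and 6 with library weights. The potassium channels had 1 higher gene without Sus-T replicate 2, 3 or 4 or any 1 Res-T library, and Kcna6 lost its call without Res-T replicate 1 or 3.

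On the presynaptic side 6 of 18 vesicle genes (33.3%) were higher and 2 (11.1%) lower, against 14% and 8.93% of all genes. Their median was 0.17, near that of all genes. Nsf read 128, 197 and 105 across Res-T and 717, 452, 728 and 571 across Sus-T. Nsf, the ATPase that takes apart spent SNARE complexes, was 4.36-fold higher (log2 2.12 ± 0.35, adjusted p = 0.00172), with no overlap. Synj1, a phosphatase that uncoats endocytosed vesicles, was 2.15-fold and Unc13a, which primes vesicles for release, 3.003-fold higher. The endocytic GTPase gene Dnm3 was 1.97-fold and Rab3gap1 1.68-fold lower. Leaving out Sus-T replicate 3, Res-T replicate 1 or Res-T replicate 4 left 3 vesicle genes higher and 1 lower, and leaving out Sus-T replicate 4 also left 1 lower.

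Of 22 genes for calcium and cAMP signalling (CaMK, protein kinases A and C, and calcineurin) 11 (50%) were higher and 2 (9.09%) lower. The shares of all genes were 14% and 8.93%, and the list's median was 0.93. Res-T libraries held Calm2 at 593, 593 and 412, against 1072, 1168, 1602 and 1313 in Sus-T. Calm2, one of the genes for calmodulin, was 2.42-fold higher (log2 1.28 ± 0.23, adjusted p = 0.00256), Ppp3cb, a catalytic subunit of calcineurin, 2.18-fold, and the phosphodiesterase Pde4d 5.71-fold. Its relative Pde4b moved the other way and was 1.97-fold lower (log2 -0.98 ± 0.23, adjusted p = 0.00745), as was the scaffold Akap9 (1.903-fold). Of 40 genes of MAP kinase, CREB and neurotrophin signalling 11 (27.5%) were higher and 2 (5%) lower, with a median of 0.26. Crtc1 measured 168, 174 and 142 in the 3 Res-T and 793, 435, 545 and 398 in the 4 Sus-T libraries. Crtc1, the calcium-regulated coactivator of CREB, was 3.24-fold higher (log2 1.70 ± 0.27, adjusted p = 0.00165). The lower members were Gab1, an adaptor of receptor tyrosine kinases (2.27-fold), and Rictor, of mTOR complex 2 (2.099-fold). Without Res-T replicate 4 the higher members were 6 of the 22 and 5 of the 40, and without Res-T replicate 1 they were 6 of the 40.

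Immediate early genes were called in both directions. Of 18 activity-induced genes 2 (11.1%) were higher and 1 (5.56%) lower, near the 14% and 8.93% of all genes. Their median was -0.03, or 0.04 when libraries are scaled to equal totals. All Sus-T values lay above all Res-T values for 5 of them and below for 6, against 24.4% and 16.3% of all genes. Their summed share of the library total did not overlap, at 0.476 to 0.606% in Res-T and 0.323 to 0.413% in Sus-T. The values of Fos were 3009, 2854 and 3909.6 in Res-T and 1139, 1669.6, 1124 and 1396 in Sus-T. Fos, the classic marker of recent firing, thus had values that did not overlap, but its log2 difference of -1.29 ± 0.46 (SE) did not pass (limma adjusted p = 0.0502). Nr4a1 overlapped between the labels, with a log2 difference of 0.17 (adjusted p = 0.755). The higher genes were Dusp6, a phosphatase that shuts off ERK (5.66-fold), and the scaffold gene Homer1 (1.83-fold), and the lower gene was Tiparp (1.67-fold). Leaving out Sus-T replicate 3 or Res-T replicate 1, 3 or 4 gave 1 higher and 0 lower, and leaving out Sus-T replicate 1 gave 2 and 0. A fit of the 7 libraries alone gave 5 higher and 6 lower, and library weights gave 5 and 4. Requiring a mean of at least 10 or of at least 100, or using a pseudocount of 10, gave 2 higher and 2 lower.

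None of 15 genes of glucocorticoid and stress signalling passed the test, against 23% of all genes, and their median was 0.23. The 2 with the smallest p were the coactivator Ncoa3, at -0.77 ± 0.33 (SE), and the clock gene Per1, at -0.73 ± 0.31, each with an adjusted p of 0.101 in limma. Per1 stood at 669.9, 903 and 613 in the Res-T and at 454, 449, 397 and 436 in the Sus-T libraries. Both had all Sus-T values below all Res-T values. Under quantile normalization 2 members of this list passed as higher, as did 1 without Res-T replicate 3. A fit of the 7 libraries alone called 1 higher and 2 lower, and library weights 2 and 2. The receptor gene Nr3c1 and Fkbp5 were not analysed here. Of 23 heat shock and dissociation stress genes only Hspe1 (4.35%) passed, and under quantile normalization 3 were higher and 1 lower. Of 7 endocannabinoid genes 1 (14.3%) was higher, near the 14% of all genes. This was the lipase Abhd12 (1.66-fold), and it lost its call without Sus-T replicate 2, 3 or 4 or Res-T replicate 1 or 4 and under quantile normalization.

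Genes of protein synthesis that passed in the main fit were higher. Of 17 cytosolic ribosomal protein genes 12 (70.6%) were higher and 0 lower, with a median log2 difference of 1.08. For 13 there was no overlap, with Sus-T above, against 24.4% of all genes. For Rps15a the libraries gave 190.2, 129.9 and 159 in Res-T and 656, 467, 459.7 and 303 in Sus-T. Rps15a was 2.87-fold higher (log2 1.52 ± 0.25, adjusted p = 0.00165) and Rpl18 4.43-fold (log2 2.15 ± 0.40, adjusted p = 0.00274). Rpl10 read 589, 577 and 443 across Res-T and 922, 1370.0, 1110.4 and 1145 across Sus-T. Rpl10 was 2.11-fold higher. The list made up 0.146 to 0.227% of the library total in Res-T and 0.381 to 0.474% in Sus-T with trauma. Of 44 translation factor genes 9 (20.5%) were higher and 0 lower, against 14% and 8.93% of all genes. Among them were the elongation factors Eef2 (2.4-fold) and Eef1a1 (2.01-fold), and the list's median was 0.31. Between 9 and 13 of the ribosomal genes were called when 1 library was left out, all higher, and the translation factors called were 5 without Res-T replicate 1 or without Res-T replicate 4. Some settings also called translation factors lower. There were 8 higher and 2 lower under quantile normalization and 13 and 2 with library weights. A fit of the 7 libraries alone gave 12 and 2, and leaving out Sus-T replicate 4 gave 8 and 1. Ribosomal protein genes and Eef1a1 have many processed pseudogenes, and how reads were divided among these copies is not given in the sources used here.

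Genes of energy metabolism were called in 1 direction. Of 41 nuclear genes of the respiratory chain 13 (31.7%) were higher and 0 lower, against 14% and 8.93% of all genes. Their median was 0.77, and 22 had separate groups with Sus-T above, against 24.4% of all genes. Res-T libraries held Ndufa10 at 69.9, 86.9 and 61.2, against 217, 279, 318 and 445 in Sus-T. Ndufa10, of complex I, was 4.19-fold higher (log2 2.07 ± 0.40, adjusted p = 0.00332), Uqcrb, of complex III, 2.84-fold, and Atp5b, the catalytic beta subunit of ATP synthase, 1.87-fold. Of 35 genes of glycolysis and the citrate cycle 14 (40%) were higher and 0 lower, with a median of 0.69. Mdh1 measured 207, 202 and 185 in the 3 Res-T and 408, 431, 598 and 465 in the 4 Sus-T libraries. Mdh1, of the malate shuttle, was 2.37-fold higher (log2 1.25 ± 0.23, adjusted p = 0.0027), and Idh3a, of the NAD-dependent isocitrate dehydrogenase, 2.802-fold. Without Res-T replicate 4, 4 of the 41 and 10 of the 35 were called, all higher, and without Res-T replicate 1, 7 and 8. Without Res-T replicate 3, 9 of the 35 were called. Under quantile normalization 8 of the 41 were called.

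Proteasome and membrane traffic genes that passed were mainly higher, while ubiquitin genes were called in both directions. Of 32 proteasome genes 9 (28.1%) were higher and 1 (3.125%) lower, against 14% and 8.93% of all genes. They included the core subunit Psma5 (4.22-fold), the assembly factors Pomp (3.94-fold) and Psmd5 (3.57-fold), and, as the lower gene, the ATPase subunit Psmc2 (1.76-fold). Of 74 ubiquitin ligase and deubiquitinase genes 10 (13.5%) were higher and 7 (9.46%) lower, near the 14% and 8.93% of all genes. The values of Usp46 were 103, 127 and 78.3 in Res-T and 331, 230.2, 276 and 281 in Sus-T. Usp46, a deubiquitinase that acts on AMPA receptors, was 2.73-fold higher (log2 1.45 ± 0.26, adjusted p = 0.00236), and Rnf11 2.63-fold, while Usp54 was 2.304-fold and the ligase Itch 1.97-fold lower. Of 86 endosome and vesicle trafficking genes 18 (20.9%) were higher and 1 (1.16%), the COPII subunit Sec24a, lower, against 14% and 8.93% of all genes. Rab6b stood at 443, 735 and 417 in the Res-T and at 1575, 1809.5, 2143 and 1905 in the Sus-T libraries. Rab6b, a neuronal Golgi GTPase, was 3.59-fold and the adaptor subunit Ap1b1 3.55-fold higher. Without Res-T replicate 1 or without Res-T replicate 4, the count of higher trafficking genes was 4, and that of proteasome genes 3 and 2. Without Sus-T replicate 3 these counts were 9 and 4, and without Sus-T replicate 4 they were 11 and 5. Under quantile normalization 5 proteasome genes were higher. The call of Psmc2 held in 1 of the 7 fits that left out a library, that without Res-T replicate 3, and that of Sec24a in those without Sus-T replicate 2 or 4. The ubiquitin list went to 4 higher and 2 lower genes without Res-T replicate 1 or without Res-T replicate 4, and to 6 and 3 without Res-T replicate 3. Its lower genes were 2 without Sus-T replicate 1 or 3 and 4 without Sus-T replicate 4.

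Of 46 ion and amino acid transporters and pumps 13 (28.3%) were higher and 4 (8.70%) lower, against 14% and 8.93% of all genes. The proton pump that acidifies lysosomes and synaptic vesicles contributed Atp6v0d1 (2.62-fold), Atp6v1b2 (2.09-fold) and Atp6v1d (1.91-fold). For Slc38a2 the libraries gave 3826, 4341 and 4117 in Res-T and 885, 1838, 1383 and 2145 in Sus-T. Slc38a2, a glutamine and neutral amino acid transporter, was 2.76-fold lower (log2 -1.46 ± 0.33, adjusted p = 0.00713), and Slc12a2, the chloride-importing transporter NKCC1, 2.36-fold lower. Without Res-T replicate 1 or 4 the higher members were 3 of 46, and without Sus-T replicate 3 they were 7.

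Axon guidance and synaptic adhesion genes were called in both directions, 16 of 46 (34.8%) higher and 8 (17.4%) lower, against 14% and 8.93% of all genes. Plxna4 read 71.4, 51.2 and 54.1 across Res-T and 339.6, 344, 332 and 219 across Sus-T. Plxna4, a semaphorin receptor subunit, was 5.14-fold higher (log2 2.36 ± 0.38, adjusted p = 0.00165), and Clstn1, a postsynaptic cadherin relative, 3.06-fold. Res-T libraries held Ptprd at 8847, 10042 and 8438, against 2764, 3479.8, 2897 and 4674 in Sus-T. Ptprd, a receptor phosphatase that organizes synapses, was 2.69-fold lower (log2 -1.43 ± 0.27, adjusted p = 0.00306), as were the netrin receptor Unc5c (2.16-fold) and Cntn2 (2.26-fold), an adhesion protein of the juxtaparanode that oligodendrocytes also make. Without Res-T replicate 4, 10 of the 46 were higher and 5 lower. Of 25 protocadherin genes 1 (4%) was higher, Pcdhga6, and 1 (4%) lower, Pcdh9 (2.599-fold). Pcdhga6 shares its last exons with the rest of its cluster, so its reads cannot be assigned with certainty. Without Sus-T replicate 1 the protocadherins called were 2 higher and 2 lower, and without Sus-T replicate 2 they were 2 and 1.

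Cytoskeletal genes were called in both directions. Of 61 actin and spine genes 12 (19.7%) were higher and 6 (9.84%) lower, against 14% and 8.93% of all genes. Limk2, a kinase that inactivates cofilin, was 4.3-fold and Nckap1, of the WAVE complex, 1.94-fold higher, while the formin Daam1 was 2.48-fold, Efnb3 2.404-fold and Rock1 1.67-fold lower. Of 49 microtubule and motor genes 9 (18.4%) were higher and 6 (12.2%) lower, again near the shares of all genes. Map1b measured 2085, 3329 and 1248 in the 3 Res-T and 4613, 5689, 6602 and 6460.3 in the 4 Sus-T libraries. Map1b was 2.82-fold (log2 1.49 ± 0.28, adjusted p = 0.00302), Map1a 2.101-fold and Map1s 3.34-fold higher. The values of Map7 were 2706, 3411 and 2378 in Res-T and 855, 1064, 653 and 1299 in Sus-T. Map7 was 2.98-fold lower (log2 -1.58 ± 0.31, adjusted p = 0.0033), and Tubb4a, a tubulin abundant in oligodendrocytes, 2.197-fold lower. The lower actin genes were 2 without Res-T replicate 1 or 3 and 3 without Sus-T replicate 1, Sus-T replicate 3 or Res-T replicate 4. The higher microtubule genes were 5 without Sus-T replicate 3, 4 without Res-T replicate 1 and 2 without Res-T replicate 4, which also left 3 lower.

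Splicing and RNA-binding genes that passed the test were mainly lower. Of 68 measured, 26 (38.2%) were lower and 3 (4.41%) higher, against 8.93% and 14% of all genes, and 39 did not pass. Their median log2 difference was -0.46. For 35 there was no overlap, with Sus-T below, against 16.3% of all genes. Srsf11 stood at 1165, 1081 and 1289 in the Res-T and at 477, 654, 518 and 662 in the Sus-T libraries. Srsf11, a serine/arginine-rich splicing factor, was 2.05-fold lower (log2 -1.04 ± 0.20, adjusted p = 0.00327), with no overlap. For Rbm25 the libraries gave 1659.8, 1447 and 1725 in Res-T and 579, 909, 798 and 657 in Sus-T. Rbm25, which binds exonic enhancers, was 2.21-fold lower, and Hnrnpa2b1, a nuclear ribonucleoprotein of RNA transport, 2.01-fold. The 3 higher genes were the neuronal regulators Rbfox2 (3.91-fold) and Rbfox1 (5.02-fold), and Pum2 (1.67-fold), a repressor of translation. The lower count was 18 under quantile normalization, 16 without Sus-T replicate 3, 13 without Res-T replicate 1 and 12 without Res-T replicate 4. The higher count was 7 when libraries were scaled to equal totals, and 1 without Sus-T replicate 3, Sus-T replicate 4, Res-T replicate 1 or Res-T replicate 4.

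Chromatin regulators were called in both directions, 7 of 81 (8.64%) higher and 8 (9.88%) lower, against 14% and 8.93% of all genes, with a median of -0.19. Ehmt2 read 168, 204 and 175 across Res-T and 547, 479, 555 and 603 across Sus-T. Ehmt2, the histone H3 lysine methyltransferase G9a, was 2.98-fold higher (log2 1.58 ± 0.30, adjusted p = 0.00304), and the maintenance DNA methyltransferase Dnmt1 2.42-fold. Res-T libraries held Chd7 at 1303, 1286 and 1332, against 394, 418, 324 and 605 in Sus-T. Chd7, a remodeller that is also needed for oligodendrocyte differentiation, was 3.08-fold lower (log2 -1.62 ± 0.36, adjusted p = 0.00673), and Kmt2e 1.69-fold. Without Res-T replicate 1 or 4 the counts were 4 higher and 3 lower, and the lower genes were 4 without Sus-T replicate 3 and 5 without Res-T replicate 3.

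**Figure D2:**
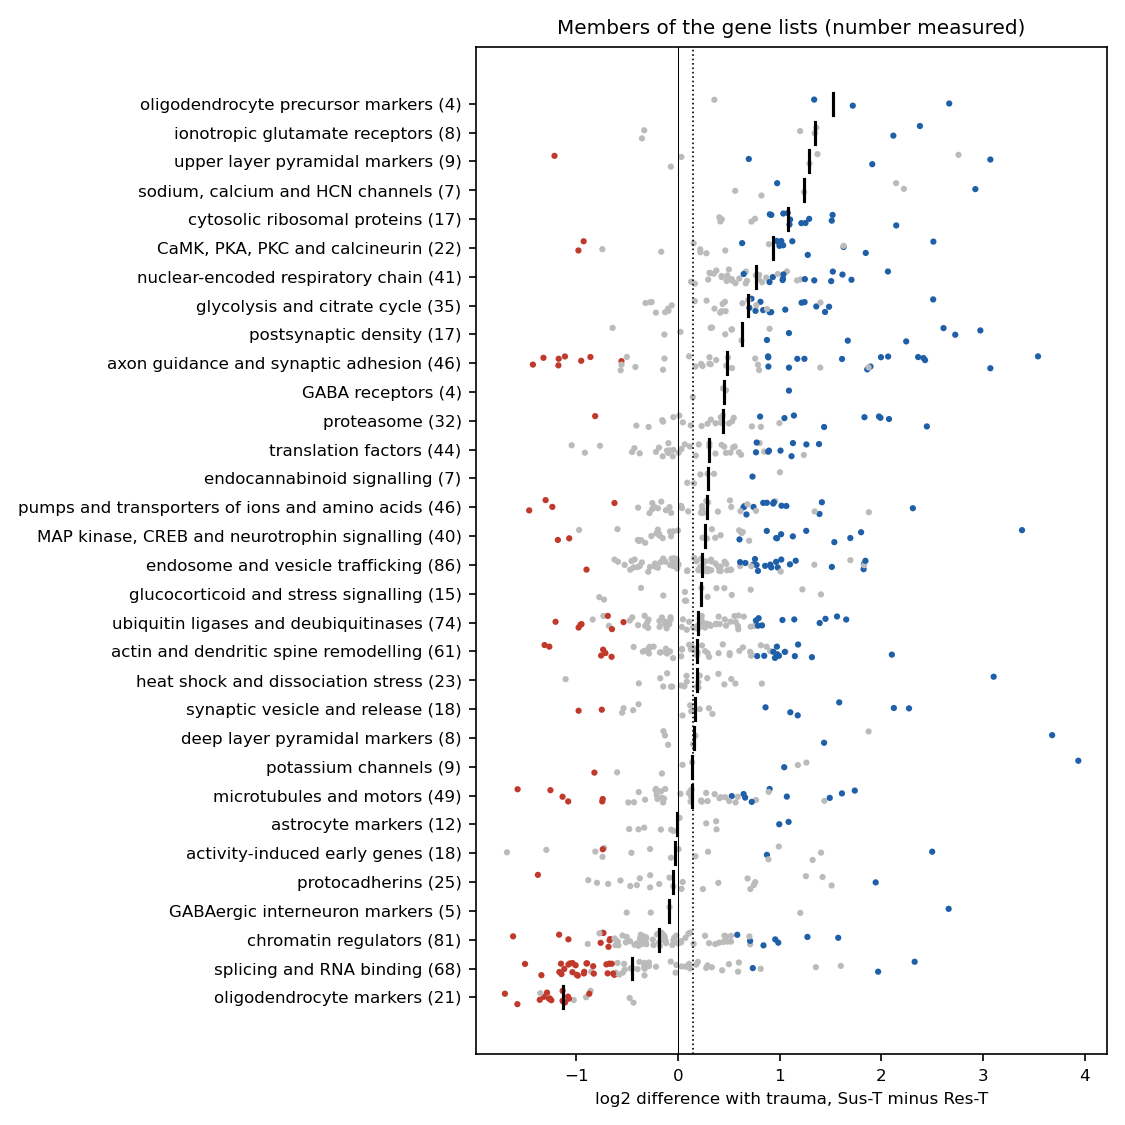
Log2 difference with trauma, Sus-T minus Res-T, of every measured member of the lists with at least 4 measured genes (blue, called higher; red, called lower; grey, not called). The black bar is the list's median and the dotted line the median of all genes, 0.15; the oligodendrocyte list has the lowest median, -1.13, and the splicing list the next, -0.46.

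Oligodendrocyte genes were called in 1 direction. Of 21 measured markers 15 (71.4%) were lower and 0 higher, against 8.93% and 14% of all genes. Their median was -1.13, and 18 had separate groups with Sus-T below, against 16.3% of all genes. Myrf measured 2816, 3239.7 and 2617 in the 3 Res-T and 1023, 862, 587 and 1178 in the 4 Sus-T libraries. Myrf, the transcription factor that drives myelin genes, was 3.26-fold lower (log2 -1.70 ± 0.31, adjusted p = 0.00256), and so were Gpr37 (2.37-fold) and the connexin Gjc3 (2.19-fold). Mbp, the myelin basic protein, had a log2 difference of -0.48 ± 0.19 (SE) and did not pass (limma adjusted p = 0.0868); it was chosen after its values were seen, as was Hspd1. The count was 17 without Sus-T replicate 4, 8 without Sus-T replicate 3 and 5 without Res-T replicate 1 or 3, and 7 with plain moderation of the variance (no trend, not robust).

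Of 4 measured markers of oligodendrocyte precursors 3 (75%) were higher, against 14% of all genes, and 1 did not pass. Their summed share of the library total overlapped between the labels, at 0.131, 0.0623 and 0.229% in Res-T and 0.172 to 0.210% in Sus-T. With a mean of at least 100 required, 2 of them were tested and 1 was called. The count was 2 under quantile normalization and without Sus-T replicate 1, 2, 3 or 4 or Res-T replicate 1 or 3. The values of Pdgfra were 256, 212 and 213 in Res-T and 703, 1115, 516 and 771 in Sus-T. Pdgfra, the growth factor receptor that defines these precursors, was 3.29-fold higher (log2 1.72 ± 0.28, adjusted p = 0.00168), with no overlap, C1ql1 6.36-fold and Lhfpl3 2.53-fold. Of 12 astrocyte markers 2 (16.7%) were higher, near the 14% of all genes. These were Apoe (2.13-fold) and Cst3 (1.995-fold), both also made by microglia. The astrocyte median was -0.01, or 0.06 when libraries are scaled to equal totals. Without Res-T replicate 4, 1 astrocyte marker was called. The vascular gene Bsg did not pass (0.95 ± 0.34, SE, limma adjusted p = 0.0509), although all its Sus-T values lay above all Res-T values. Bsg was called higher with equal library totals, a mean of at least 100, a pseudocount of 10, library weights or a replicate block. The same held in a fit of the 7 libraries alone and without Sus-T replicate 3, Sus-T replicate 4 or Res-T without trauma replicate 4. In the other settings Bsg was not called. Of 3 sex-linked genes Eif2s3y (3.34-fold) and Uty (1.68-fold), both on the Y chromosome, were lower, with a lowest value of 55.6 and 306 in any of the 7 libraries. Uty lost its call without Res-T replicate 1 or Res-T replicate 4.

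Markers of cortical layers were sparse and divided. Of 9 measured upper-layer markers 3 (33.3%) were higher and 1 (11.1%) lower, against 14% and 8.93% of all genes. The higher ones were Cdh13 (8.42-fold), Stard8 (3.76-fold) and Cux1 (1.62-fold). The lower one was Enpp2 (2.32-fold), which oligodendrocytes also express. The summed share of the 9 markers in the library total was lower in Sus-T, opposite to most of the calls. It was 0.394 to 0.414% in Res-T and 0.222 to 0.333% in Sus-T, without overlap. Without Sus-T replicate 4, Res-T replicate 1 or Res-T replicate 3 only 1 upper-layer marker was higher. Of 8 deep-layer markers 2 (25%) were higher and 0 lower. Sulf1 stood at 5.02, 1.76 and 2.65 in the Res-T and at 90.1, 85.9, 23.9 and 31.7 in the Sus-T libraries. Sulf1, which edits heparan sulfate, had a log2 difference of 3.68 ± 0.69 (SE; limma adjusted p = 0.00298) at low values in Res-T, and Deptor, an inhibitor of mTOR, was 2.71-fold higher. The deep-layer count was 1 without Sus-T replicate 4, Res-T replicate 1 or Res-T replicate 4. Of 5 interneuron markers 1 (20%) was higher, Nxph1 (6.33-fold), which lost its call without Res-T replicate 4.

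Because the oligodendrocyte share moved with the label, the fit was repeated with the mean log2 level of the 21 markers as a covariate, an alternative chosen after seeing the data. In that fit limma called 0 genes, with 803 genes at an unadjusted p under 0.05 and a smallest adjusted p of 0.119. Of the 1397 genes 1378 had the same sign as before, and the median ratio of their log2 difference to the one without the covariate was 0.671. The log2 difference of Snhg11 was 2.45 ± 0.49 (SE) with the covariate and 2.69 without, that of Mef2c 2.41 ± 0.63 and 3.38, that of Hspe1 2.66 ± 0.57 and 3.11, and that of Mast4 -1.26 ± 0.25 and -1.62. For Dlg3 it was 1.36 ± 0.69 and 2.97. With 0 genes called, every gene list was necessarily at 0 calls in that fit. The covariate itself did not overlap between the labels with trauma, at 11.353 to 11.835 in Res-T and 10.18 to 11.02 in Sus-T. The SE of Snhg11 was 0.33 without the covariate and 0.49 with it. Label and marker level thus largely coincide, and this fit cannot separate them.

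**Figure D3:**
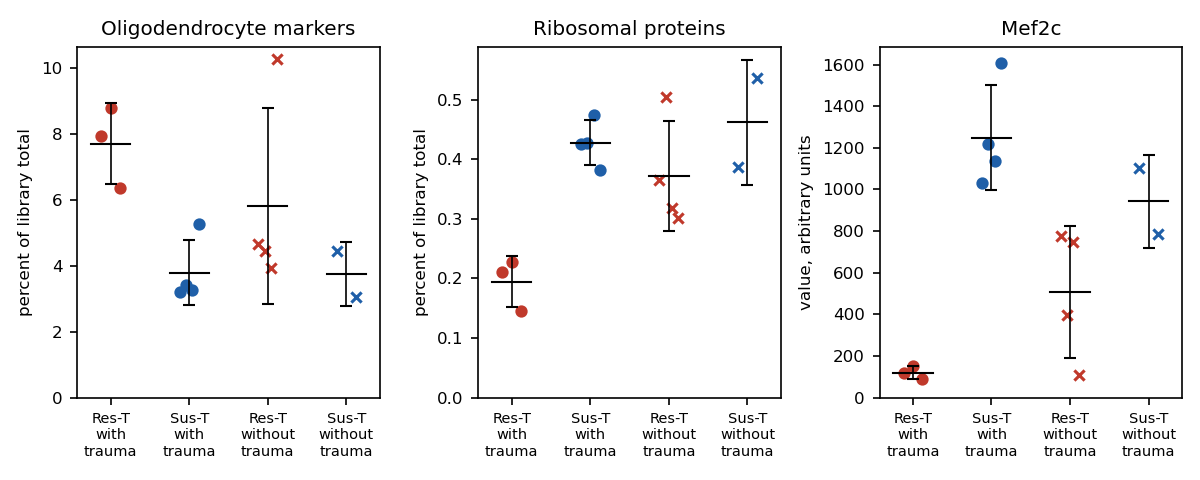
Share of the library total held by 21 oligodendrocyte markers and by 17 ribosomal protein genes, and the value of Mef2c, in each prefrontal library (y axes start at 0; the bar is the mean and the whisker the SD). Res-T libraries with trauma are high in the first panel and low in the others, and Res-T without trauma replicate 4, at 10.25%, is the highest in the first.

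The calls were uneven over gene features. Genes were divided into 5 groups of near-equal size by the length of the longest annotated transcript. In the group of shortest transcripts 190 genes were higher and 33 lower, and in that of the longest 163 and 181. By GC content of that transcript, the lowest group held 104 higher and 194 lower genes and the highest 214 and 73. By mean level the lowest group held 120 higher and 10 lower genes and the highest 185 and 261. The part of transcript length, base composition or level in the calls was not tested.

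**Figure D4:**
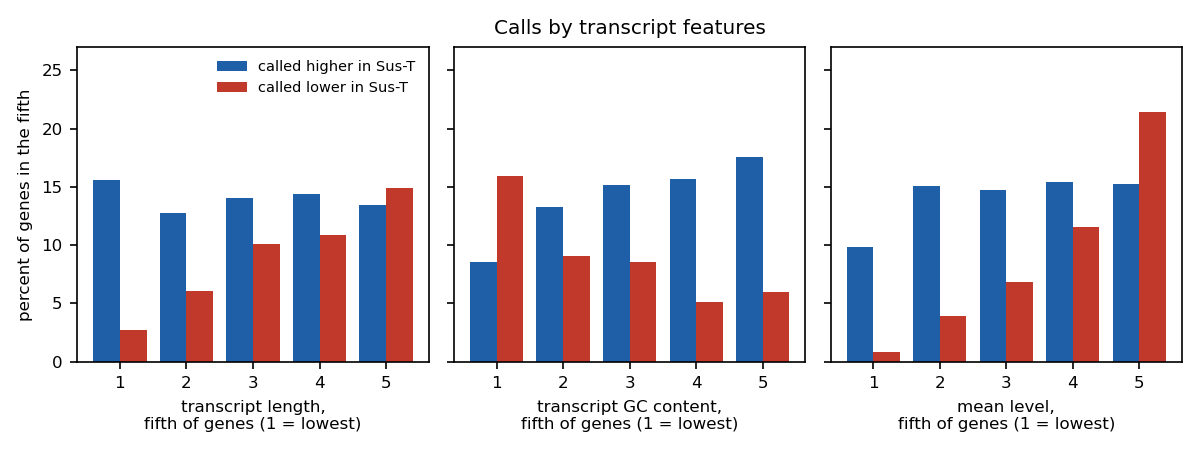
Percent of genes called higher (blue) and lower (red) in Sus-T with trauma, in 5 groups of all 6080 genes by transcript length, transcript GC content and mean level. The percent called lower goes from 2.71 to 14.9 with length and from 15.95 to 6.003 with GC content, between the first and the last group.

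Annotated chemosensory receptor genes were called in 1 direction. Of 36 such genes, 20 vomeronasal and 16 olfactory, 18 were lower in Sus-T and 0 higher, against 8.93% lower and 14% higher of all genes. Their median was -1.33. The GC content of their longest transcripts ran from 35.5 to 46.3%, against a median of 48.8% over all genes, and its part in these calls was not tested. For Vmn2r53 the libraries gave 4701, 3881 and 6251 in Res-T and 2673, 1447, 1326 and 1256 in Sus-T. Vmn2r53 was 3.04-fold lower (log2 -1.61 ± 0.35, adjusted p = 0.00572), and Olfr365 4.75-fold; both were chosen after their values were seen. Of the 36, 4 share an exon with another gene on either strand. Of 74 processed pseudogenes 24 were lower and 3 higher, against the same shares of all genes, with a median of -0.78. They were not tested against the receptor genes.

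The same contrast was examined without trauma, in 4 Res-T and 2 Sus-T libraries that entered the group means of neither label with trauma but shared the variance estimate. There limma called 0 of 6080 genes (0%), with 630 at an unadjusted p under 0.05 and a smallest adjusted p of 0.0699. Of the 854 genes higher in Sus-T with trauma 817 (95.7%) had the same sign without trauma, against 55.05% of all genes, and their median log2 difference was 0.55 in place of 1.40. Of the 543 lower genes 501 (92.3%) had the same sign, against 44.95% of all genes, with medians of -0.46 and -1.07. When Res-T without trauma replicate 4 was left out, 717 (84.0%) and 438 (80.7%) had the same sign, against 52.9 and 47.1% of all genes, with medians of 0.33 and -0.32.

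**Figure D5:**
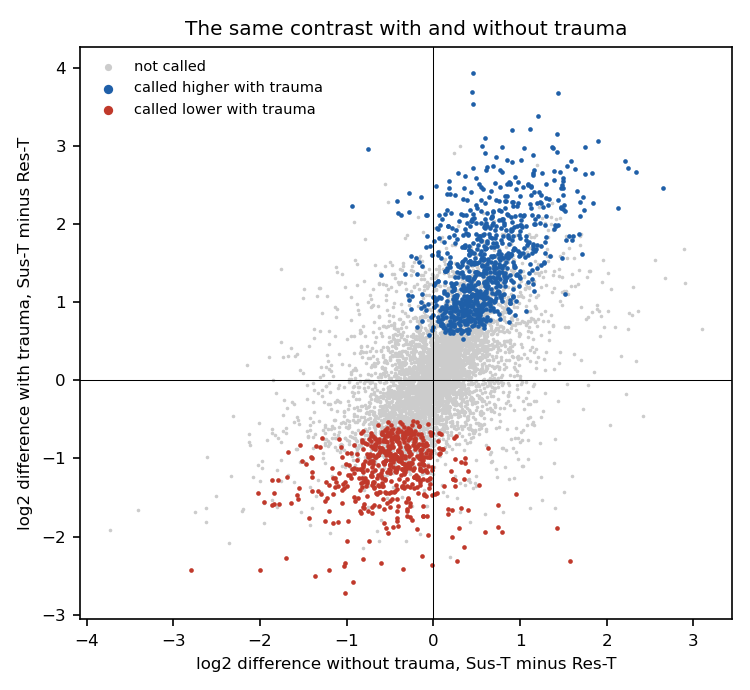
Log2 difference of Sus-T minus Res-T without trauma (x axis) and with trauma (y axis) for all 6080 genes (blue, called higher with trauma; red, called lower; grey, not called). Most coloured points lie on the same side of 0 on both axes, 817 of 854 and 501 of 543.

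The difference between the contrasts, with and without trauma, called 0 genes in limma (0%), with 371 at an unadjusted p under 0.05 and a smallest adjusted p of 0.774. The genes with the smallest p were Hspe1 (log2 3.11 with and 0.60 without trauma), Snhg11 (2.69 and 0.77), Glcci1 (1.52 and -0.16) and Snrpd1 (2.23 and -0.94) on the positive side. On the negative side were Meis1 (-2.31 and 1.57), Klf11 (-1.90 and 1.43), Trim36 (-1.60 and 0.74) and Rsbn1 (-1.04 and 0.32). Without trauma Meis1 stood at 9.06, 34.1, 53.3 and 262 in the 4 Res-T libraries and at 234 and 83.8 in the 2 Sus-T libraries. In Res-T without trauma replicate 4 Meis1, a homeodomain transcription factor, was thus far above its group. Without that library 12 genes passed, among them Mef2c (difference of the log2 differences 2.79 ± 0.41, SE, limma adjusted p = 0.00941), Meis1 (-4.71 ± 0.81, adjusted p = 0.0309), St3gal5 (2.70 ± 0.50, adjusted p = 0.0472) and Pwwp2a (2.60 ± 0.36, adjusted p = 0.00933), the last chosen after its values were seen. That library was left out after seeing the data.

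Without trauma Mef2c stood at 779, 399, 745 and 111 in the 4 Res-T libraries and at 1101 and 784 in the 2 Sus-T libraries. The values of Mef2c in Res-T without trauma thus spanned nearly the whole range between the labels, from that of the Res-T libraries with trauma upward. Each library without trauma was placed by which side of the midpoint between the 2 group means with trauma it fell on, over the 1397 called genes. Res-T without trauma replicate 4 was on the Res-T side for 92.2% of them, and the other 3 Res-T libraries without trauma for 26.1, 28.8 and 45.03%. The 2 Sus-T libraries without trauma were on that side for 17.3 and 3.65%.

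In the amygdala with trauma, whose 9872 genes were normalized separately, limma called 0 genes (0%), with 1142 at an unadjusted p under 0.05. The 2 regions were not tested against each other. Of the prefrontal genes called higher, 769 had a row there and 609 of these had the same sign (79.2%, against 51.95% of all shared genes), with a median log2 difference of 0.21. Of those called lower, 425 of 493 had the same sign (86.2%, against 48.05%), with a median of -0.20. The log2 difference in the amygdala was 0.27 for Mef2c, 0.22 for Snhg11, 1.47 for Smpd3, 1.04 for Rbfox2 and -0.25 for Mast4.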

How the data were processed

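Prefrontal RNA was measured in 13 libraries of 4 groups (3 Res-T and 4 Sus-T with trauma, 4 Res-T and 2 Sus-T without), grouped by the labels. Per the submitters' processing notes, reads were handled with bcl2fastq 2.20 and Salmon 1.2, and the build named is GRCm38.p6. The authors deposited a normalized signal per gene with no unit; how it was normalized is not given in the sources used here, and without counts the read depth and counting error are unknown.

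All 6080 genes were matched to GENCODE M21 by stable identifier. Values were analysed as log2(value + 1). A minimum mean of 1 left all genes in. A model of the 4 groups was fitted with limma 3.58.1 (R 4.3.3, trend and robust moderation, 9 residual degrees of freedom, median prior 8.4), a threshold of 0.05 after Benjamini-Hochberg adjustment, and checked on simulated data. The planned count test was not used, since the files hold no counts.

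Members and the 40 gene lists were chosen with earlier results of these data known. Named genes were the 12 higher and 12 lower with the smallest p, up to 3 called members of a list in each direction, 2 where none passed, 4 of each sign for the difference between contrasts, and preselected genes. Predicted genes and pseudogenes were only counted, 12 of 211 higher and 36 lower by symbol. Of 138 named genes 9 share an exon with another gene on the same strand and 39 on the other strand only, and whether counting used strand is not given in the sources used here. Alternatives were other scalings, filters, pseudocounts, moderation, library weights, a replicate block and leaving out each library.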

Additional observations from a re-analysis of the deposited data

Results flagged for a closer look

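In groups of 4 libraries, 9 of 164 sets of values held 1 library far from the other 3 by Dixon's criterion; chance flags about 1 in 20 such sets. In Sus-T with trauma, Cux1 was low in replicate 3 (524.0) and Plxna4 in replicate 4 (218.9). Prpf39 was high in replicate 2 (308.9), Grin3a (232.4) and Adora1 (750.6) in replicate 1, and the tubulin gene Tubb4a in replicate 4 (5294). The interneuron marker share was high in replicate 1 (0.143%) and the oligodendrocyte share in replicate 4 (5.27%). In Res-T without trauma the oligodendrocyte share was high in replicate 4 (10.25%), the library that stood beside Res-T with trauma on the first component.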

How the results depend on the processing

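No called gene changed sign in the planned settings that tested it. Values did not overlap between the labels for 832 of the 854 higher and 537 of the 543 lower genes. For these, leaving out a library could not have changed the sign. The filters on the mean tested 6009 and 3964 of the 6080 genes. The calls varied. Library weights gave 2203 calls with trauma (1379 higher, 824 lower) and 5 without trauma, where a mean of at least 100 gave 1. Leaving out 1 of the 7 libraries gave between 624 and 1163 calls, 402 to 711 higher and 222 to 512 lower: 624 without Res-T replicate 1, 669 without Res-T replicate 4, 924 without Res-T replicate 3 and 886 without Sus-T replicate 3. Each such fit has fewer libraries. A fit of the 7 libraries alone gave 1997. Scaling to equal library totals gave 982 higher and 478 lower calls and a median over all genes of 0.21, and a mean of at least 100 gave 623 and 535 among 3964 genes. A replicate block gave 1055 calls, 1030 of them among the 1397. Deviations of same-numbered libraries correlated at -0.01, -0.02 and -0.12, and those of differently numbered libraries at -0.117 to 0.16. So few pairs cannot decide whether the numbers pair the libraries. 2 alternatives were chosen after seeing the data. With the oligodendrocyte marker level as a covariate 0 genes were called (0 higher, 0 lower), and 19 of the 1397 changed sign. That level did not overlap between the labels with trauma, so this fit cannot separate label and marker level. Without Res-T without trauma replicate 4 the comparison with trauma called 1608 genes (1012 higher, 596 lower) and the difference between contrasts called 12 genes; the cause was not tested. Depth is unknown, so no limit from counting error can be given.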
